A study of Homo sapiens with 4 samples.

Results

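The 9 genes described here encode proteins of the epithelial tight junction: the cytoplasmic scaffolds TJP1 and TJP3 (ZO-1 and ZO-3), the cingulins CGN and CGNL1 (cingulin and paracingulin), the transmembrane proteins OCLN (occludin) and F11R (junctional adhesion molecule A), and the claudins CLDN1, CLDN4 and CLDN7. They are 9 of the 35767 gene rows in the count table and were picked by name with results of this comparison known, selected on it for the opposite changes of CGNL1 and TJP3. Their differences between the groups are therefore given as a description, with standard errors and without p-values. The cells are SAS, a human squamous carcinoma line from the tongue. In 2 libraries the cells had been given a control siRNA (siControl, genotype label WT). In 2 others they had been given an siRNA against NAT10, an RNA acetyltransferase (siNAT10), and the genotype label names a NAT10 knockdown in replicate 1 and a NAT11 knockdown in replicate 2. The labels give neither the siRNA sequence nor the time after transfection. They call the libraries of a group biological replicates without saying what separated them (cultures, passages or transfections). Each p-value therefore sets a group difference only against the variation between these libraries, estimated with information shared over all tested rows.

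Tight junctions seal the space between neighbouring epithelial cells near their apical border. Claudins form the paracellular strands and set which ions pass, occludin and junctional adhesion molecules lie beside them, and ZO proteins hold the cytoplasmic tails of these membrane proteins and link them to actin. Cingulin and paracingulin bind ZO proteins from the cytoplasmic side and recruit proteins that act on actin and microtubules.

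Total counts ranged from 30794757 to 36341785 per library. NAT10 itself stood at 240.4 and 231 CPM (a gene's counts relative to the TMM-scaled library size) in siControl replicates 1 and 2, and at 253 and 248 CPM in the siNAT10 pair. The log2 fold change, siNAT10 minus siControl, was 0.09 ± 0.064 (SE, edgeR adjusted p = 0.293, and -0.02 with libraries scaled by their totals alone). The table thus shows no lower NAT10 mRNA, and siNAT10 stands below for a library's label only. NAA40, for which NAT11 is another name, was at 22.1 and 18.8 CPM and at 18.6 and 18.2 CPM (edgeR adjusted p = 0.255, passing the threshold with library totals alone, and 0.049 to 0.866 over the alternatives). Of all 20098 genes tested, 19.7% were called higher and 20.7% lower at an adjusted p under 0.05, and the CPM of the groups did not overlap for 69.5%. With library totals alone the share of calls that were higher was 32.4% in place of 48.7%, and the median gene moved by -0.11 on the log2 scale.

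The labelled epithelial origin was checked against 10 markers, which together reached 3394 to 3495 CPM in every library. Most of this came from the simple keratin KRT8 (1667 and 2006 CPM as means of siControl and siNAT10), KRT17 and KRT18. E-cadherin (CDH1), the adhesion protein that defines epithelial sheets, was low, at 1.26 and 1.29 CPM in siControl and 1.04 and 0.779 CPM in siNAT10. The squamous lineage genes KRT5 and TP63 were under 1 CPM in every library. The steady sum covers markers that moved: of 9 tested, 2 were called higher and 3 lower, beside 19.7% and 20.7% of all tested genes. Those higher were KRT8, the most abundant (edgeR adjusted p = 0.00158), and SFN, from 236 to 265 CPM (edgeR adjusted p = 0.0451). KRT14, a keratin of basal squamous cells, fell from 4.04 and 4.12 CPM to 1.97 and 1.86 CPM (edgeR adjusted p = 2.59e-04), KRT17 fell from 844 to 565 CPM (edgeR adjusted p = 7.95e-07), and EPCAM, described with the claudin partners, fell too. The part of these differences in those of the junction genes was not tested. Endothelial markers summed to 13.4 to 14.4 CPM, most of it ESAM, fibroblast markers to 30.2 to 37.4 CPM, most of it COL1A1, and leukocyte markers to at most 1.05 CPM.

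Stretches of the members' promoters are shown because the same table measures several factors that bind such letters. RefSeq (GRCh38.p14) lists 14 transcription starts for 8 of the 9 genes, and F11R has no entry in the table used. The 250 bases before each start were searched on both strands for CAGGTG (an E-box form that SNAI and ZEB repressors bind), AACCGG (a core of grainyhead-like factors), CATTCC (the core of TEAD factors) and TGAGTCA (an AP-1 site). No motif is part of another. Capitals mark the matches in these 30-base stretches, and the CGNL1 stretch of 234 bases, the part of its window outside annotated exons, holds none. Of the other windows shown, CLDN7 start 2 lies with all 250 bases inside annotated exons of CLDN7. Exons also cover 120 bases of the TJP3 start 2 window, 120 of OCLN start 2 and 150 of CLDN1. The windows of TJP1 start 1 and CGN hold no exon bases.
CLDN7, start 2, chr17:7262479-7262508, minus strand, 2 E-boxes: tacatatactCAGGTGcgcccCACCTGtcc
CLDN7, start 2, chr17:7262599-7262628, minus strand, grainyhead core and E-box side by side: ccacgacttCCGGTTCAGGTGagtgtccct
TJP3, start 2, chr19:3721707-3721736, plus strand, E-box: gagacctggaggaggaagaggggCAGGTGc
OCLN, start 2, chr5:69492645-69492674, plus strand, E-box: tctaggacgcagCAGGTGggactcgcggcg
TJP1, start 1, chr15:29969120-29969149, minus strand, E-box: gcggccggcgcgCAGGTGgcccggcctcgc
CGN, start 1, chr1:151511283-151511312, plus strand, grainyhead core: gggaagcggaccAACCGGagcggggaaagg
CLDN1, start 1, chr3:190322548-190322577, minus strand, grainyhead core: cgcgcgttccccAACCGGgcgctcccggcg
CGNL1, start 1, chr15:57376271-57376504, plus strand, no match: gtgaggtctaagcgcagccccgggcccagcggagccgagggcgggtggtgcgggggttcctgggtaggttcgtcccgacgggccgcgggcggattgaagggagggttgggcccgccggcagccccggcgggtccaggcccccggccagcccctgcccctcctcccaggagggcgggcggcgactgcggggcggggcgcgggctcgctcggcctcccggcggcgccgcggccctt

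The E-box was present in 5 of the 14 windows, belonging to 4 genes (CLDN7, TJP3, OCLN and TJP1), against 17.5% of all 35116 RefSeq windows of this length. The grainyhead core was in 4 windows (CGN, CLDN1, OCLN and CLDN7) against 5.99% of all, the AP-1 site in 1 (CLDN4) against 4.20%, and the TEAD core in none, against 11.9%. Windows of 1 gene can share bases, so they are not independent. The second CLDN7 window held 4 E-boxes and 2 grainyhead cores, and its neighbour at the first CLDN7 start held none of the motifs searched. The CGNL1 window was 80.4% G and C, above the upper quartile of 68.0% over all windows. The counts do not show which start was used in these cells, and a match is a run of letters, not a measured binding site.

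Among the cytoplasmic proteins, CGNL1 and the scaffold TJP3 moved in opposite directions, while CGN and TJP1 were higher by smaller amounts. CGNL1 (chromosome 15, 57375967 to 57550727, GRCh38), which encodes paracingulin, was at 2.78 and 2.96 CPM in siControl replicates 1 and 2 and at 16.7 and 17.8 CPM in siNAT10 replicates 1 and 2. Both siNAT10 libraries lay far above both siControl libraries, and the pairs were tight. The mean rose 6.01-fold, from 2.87 ± 0.13 to 17.3 ± 0.79 CPM (SD, n = 2 each), a log2 fold change of 2.58 ± 0.14 (SE). The opposite-strand row CTD-2515H24.4 shares 103 of 8663 exon bases with CGNL1 and had 12 and 21 counts in siControl and 61 and 51 in siNAT10, beside 106 and 110 and then 578 and 526 counts for CGNL1.

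CGN (chromosome 1, 151510510 to 151538692), which encodes cingulin, was at 21.7 and 26.5 CPM in siControl and at 31.2 and 27.3 CPM in siNAT10. The groups did not overlap, but siControl replicate 2 and siNAT10 replicate 2 nearly met. Its log2 fold change was 0.28 ± 0.10 (SE), passing the threshold in the analysis of all libraries and in 8 of 12 alternatives. The call was lost without siControl replicate 1 (0.14), without siNAT10 replicate 1 (0.19), with library totals alone and with DESeq2. Per kilobase of exon, CGNL1 stood at 0.0978 and 0.0853 of the CGN level in siControl and at 0.409 and 0.498 in siNAT10. Paracingulin transcripts thus went from 8.91% and 7.86% of the summed cingulin level to 29.1% and 33.2%.

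TJP3 (chromosome 19, 3708109 to 3750813), the ZO protein found mainly in epithelia, was at 15.4 and 18.6 CPM in siControl and at 4.28 and 4.37 CPM in siNAT10. The siNAT10 libraries were almost equal and lay well below both siControl libraries. The mean fell 3.94-fold, from 17.0 ± 2.3 to 4.32 ± 0.066 CPM (SD, n = 2 each), a log2 fold change of -1.98 ± 0.14 (SE). No other row of the table overlaps its exons.

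TJP1 (chromosome 15, 29699367 to 29968865), a ZO protein made in most cell types with junctions, was at 49.2 and 43.2 CPM in siControl and at 61.1 CPM in each siNAT10 library. It was higher in both siNAT10 libraries, by a log2 fold change of 0.40 ± 0.078 (SE). The value was 0.50 without siControl replicate 1, 0.31 without siControl replicate 2 and 0.29 with library totals alone. TJP3 had 0.836 and 1.15 of the TJP1 level per kilobase in siControl and 0.187 and 0.191 in siNAT10. TJP3 thus went from about the level of TJP1 to well below it in both siNAT10 libraries.

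**Figure D1:**
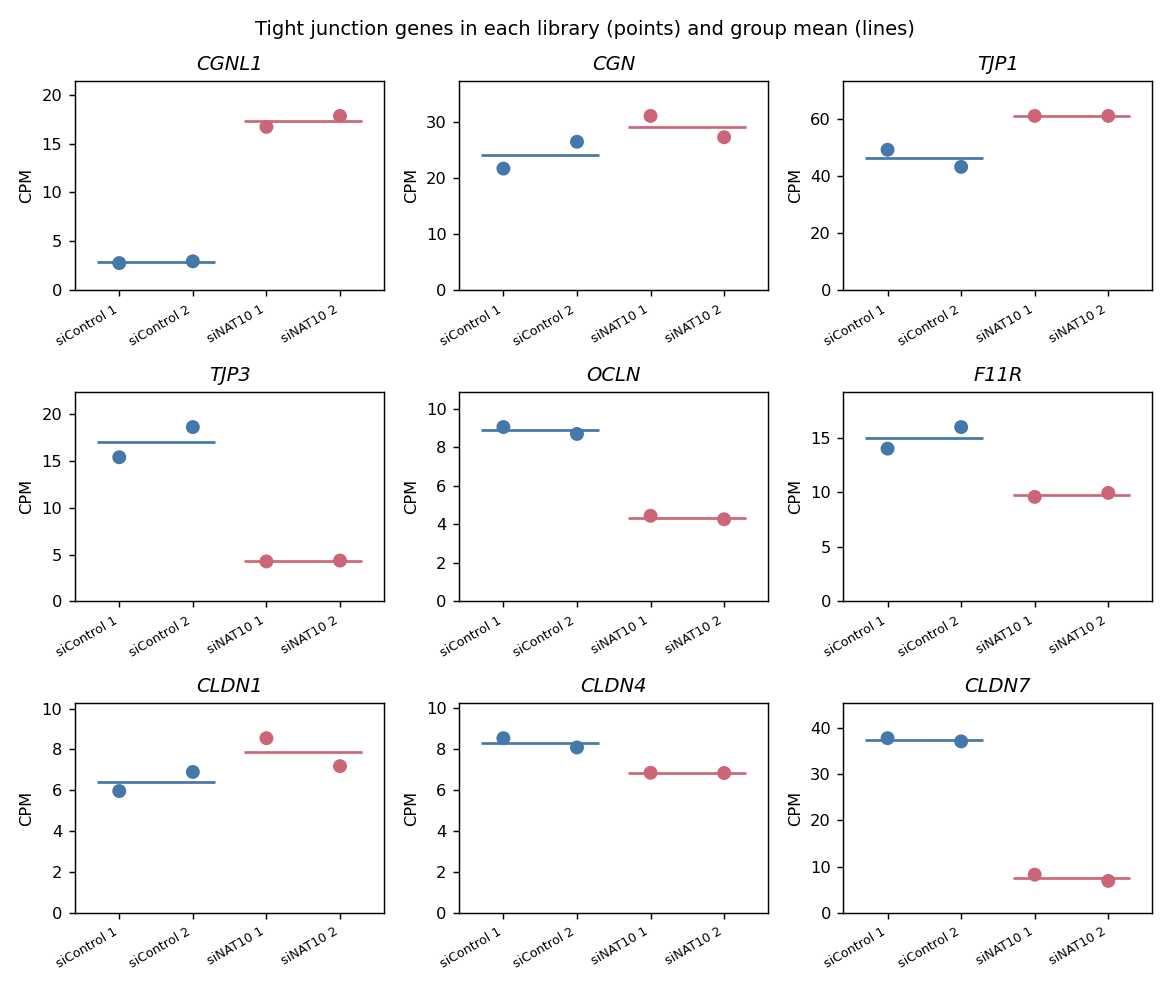
CPM of each of the 9 tight junction genes (vertical axis, linear, starting at 0) in the 2 siControl and 2 siNAT10 libraries (horizontal axis), with points for libraries and lines for group means. CGNL1 is high only in the siNAT10 libraries, whereas TJP3, OCLN and CLDN7 are low there; the points of CGN and CLDN1 lie close between the groups.

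Among the transmembrane proteins outside the claudin family, both members were lower in siNAT10. OCLN (chromosome 5, 69492292 to 69558104), a MARVEL-domain protein of the junction strands, was at 9.06 and 8.70 CPM in siControl and at 4.45 and 4.27 CPM in siNAT10. Each pair was tight and the groups were far apart. The mean fell 2.04-fold, with a log2 fold change of -1.02 ± 0.14 (SE, n = 2 each).

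F11R (chromosome 1, 160995211 to 161021348), an immunoglobulin-like adhesion protein that helps place polarity proteins at the forming junction, was at 14.0 and 16.0 CPM in siControl and at 9.59 and 9.96 CPM in siNAT10. Both siNAT10 values were below both siControl values, by a log2 fold change of -0.62 ± 0.12 (SE). The same-strand row RP11-544M22.13 covers 36.6% of the F11R exon bases and had 309 and 336 counts in siControl and 162 and 155 in siNAT10, beside 534 and 594 and then 332 and 294 for F11R. Reads that lie within the shared bases cannot be told apart between the 2 rows.

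The claudins split: CLDN7 fell 4.97-fold, while CLDN1 and CLDN4 did not pass the threshold. CLDN7 (chromosome 17, 7259903 to 7263983), a claudin of epithelial lateral membranes that binds EpCAM, was at 37.9 and 37.2 CPM in siControl and at 8.24 and 6.88 CPM in siNAT10. The siControl libraries agreed closely and both siNAT10 libraries were far below them. The mean fell 4.97-fold, from 37.5 ± 0.49 to 7.56 ± 0.96 CPM (SD, n = 2 each), a log2 fold change of -2.31 ± 0.11 (SE). The same-strand row RP1-4G17.5 shares 10.8% of the CLDN7 exon bases and had 699 and 733 counts in siControl and 492 and 472 in siNAT10, and ELP5 on the other strand shares 38 bases.

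CLDN1 (chromosome 3, 190305701 to 190322475), the claudin needed for the skin's water barrier, was at 5.96 and 6.90 CPM in siControl and at 8.55 and 7.18 CPM in siNAT10. The siNAT10 values were above the siControl values, but siControl replicate 2 and siNAT10 replicate 2 were close. Its log2 fold change was 0.30 ± 0.15 (SE), between 0.17 without siNAT10 replicate 1 and 0.41 without siNAT10 replicate 2.

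CLDN4 (chromosome 7, 73799542 to 73832693), a sealing claudin of simple and stratified epithelia, was at 8.51 and 8.06 CPM in siControl and at 6.82 and 6.81 CPM in siNAT10. The difference of -0.28 ± 0.13 (SE, log2) did not pass the threshold, and passed it with library totals alone (-0.39). CLDN1 and CLDN4 rested on 201 to 324 counts per library.

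Because of CLDN7, the make-up of the claudin family changed. Of the 20 claudins in the table, 14 were under 1 CPM in every library and 4 were above 5 CPM in any, namely CLDN1, CLDN4, CLDN7 and CLDN12. Per kilobase of exon, CLDN7 was 63.5% and 63.1% of all claudin signal in siControl and 27.6% and 24.1% in siNAT10. The share of CLDN1 went from 6.80% and 7.96% to 19.5% and 17.2%, that of CLDN4 from 7.56% and 7.24% to 12.1% and 12.7%, and that of CLDN12 from 8.71% and 8.69% to 20.5% and 23.7%. The summed claudin level went from 23.9 and 23.7 to 12.0 and 11.4 CPM per kilobase. These shares are of mRNA reads, and lengths are those of all annotated exons, so a short isoform in use would raise its true share.

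**Figure D2:**
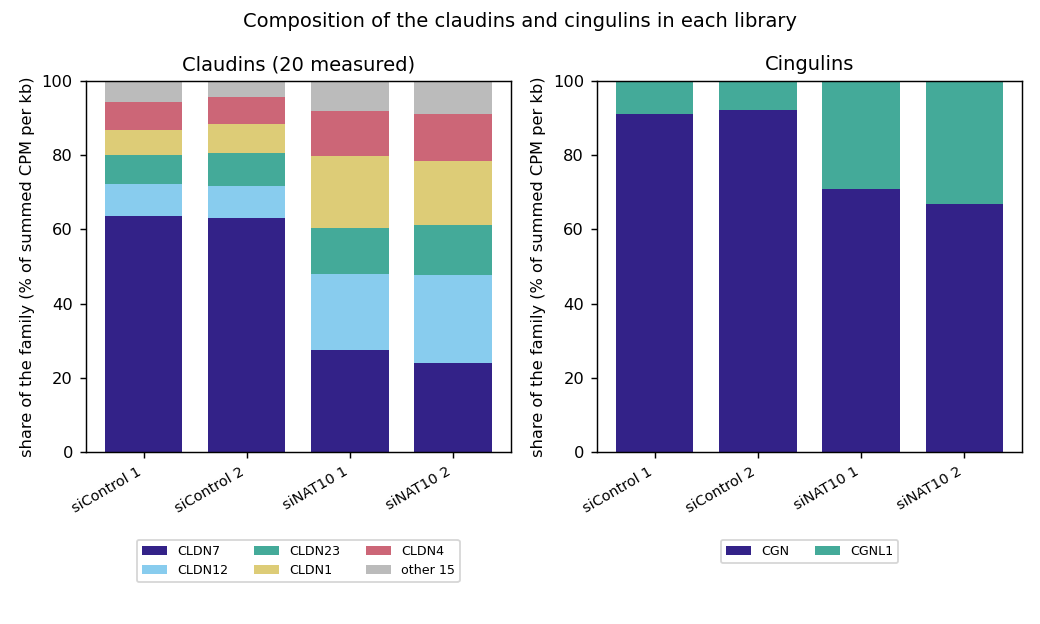
Share of each gene in the summed CPM per kilobase of its family (vertical axis, percent), for claudins and cingulins in each of the 4 libraries (horizontal axis). CLDN7 is the largest claudin block in siControl, at 63.5% and 63.1%, and shrinks to 27.6% and 24.1% in siNAT10, and CGNL1 grows among the cingulins.

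The order of the 9 levels per kilobase changed accordingly. In siControl, CLDN7 led at a mean of 15.1 CPM per kilobase (14.9 and 15.2 in the libraries), followed by TJP1, TJP3 and CGN between 4.11 and 3.65, whose neighbouring values overlapped between libraries. F11R came next at 2.96, then CLDN4 and CLDN1 at 1.76 each (1.761 and 1.755, not separable), OCLN at 1.31 and CGNL1 last at 0.332. In siNAT10, TJP1 led at 5.42, ahead of CGN at 4.42 and CLDN7 at 3.03. CLDN1, CGNL1 and F11R followed at 2.15, 1.99 and 1.93, with overlapping neighbours, and CLDN4, TJP3 and OCLN were last at 1.45, 1.03 and 0.645. CGNL1 thus stood last of the 9 in siControl and level with CLDN1 and F11R in siNAT10. The order, like the ratios between genes above, rests on the length of all annotated exons. A gene used as a short isoform would stand higher.

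Over the 9 genes, all of which were tested, 3 were called higher (CGNL1, CGN and TJP1), 4 lower (TJP3, OCLN, F11R and CLDN7) and 2 not called, beside 19.7% and 20.7% of all genes called higher and lower. The groups did not overlap for any of the 9, beside 69.5% of all genes. The genes were chosen with this contrast in view, so nothing is read from these counts. Their median log2 fold change was -0.28, the value of CLDN4, which was not called, against -0.0079 over all tested genes. Nothing is read from this median either.

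**Figure D3:**
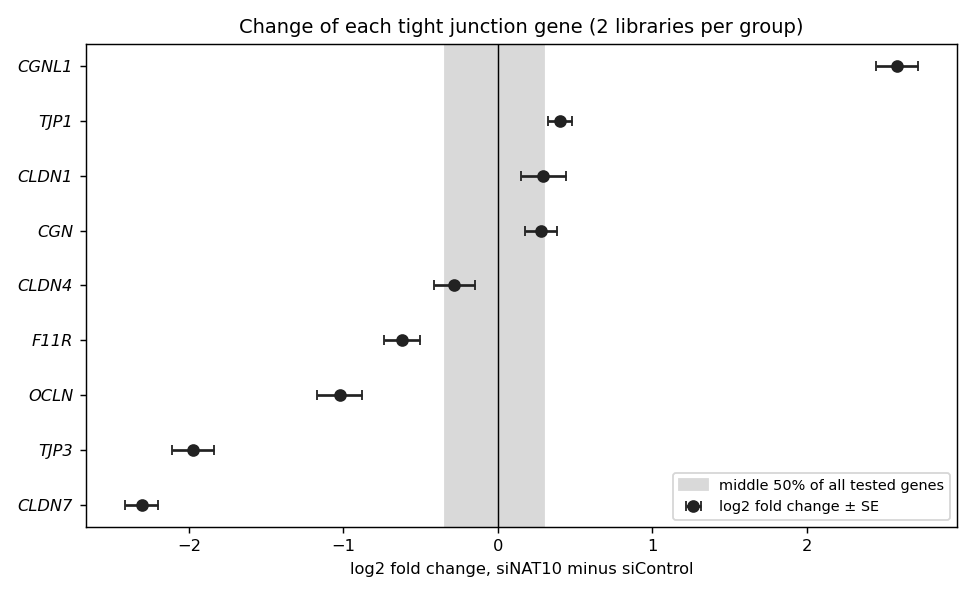
Log2 fold change (horizontal axis, siNAT10 minus siControl) with its standard error for each of the 9 genes (vertical axis, ordered by value), over the middle 50% of all tested genes (grey band, -0.34 to 0.30). CGNL1 lies at 2.58 and TJP3 and CLDN7 at -1.98 and -2.31, outside the band, while CLDN1, CGN and CLDN4 lie within it.

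The rows with the most similar pattern over the 4 libraries were sought among 4166 (for CGNL1) and 4165 (for TJP3) rows with a RefSeq protein, no exon overlap and a mean of 10 CPM or more in 1 group, by the Euclidean distance of their centred log2 CPM. For CGNL1 these were CSAG1 (distance 0.352), a cancer-testis gene, PSG4 (0.561), a pregnancy glycoprotein gene, and INHBA (0.661), which encodes an activin subunit. CSAG1 and PSG4 have near-identical relatives, so their counts are uncertain. For TJP3 they were ABCG1 (0.101), a cholesterol exporter, TRIB3 (0.194), a stress-induced pseudokinase, and IFIT3 (0.196), an interferon-induced gene. ABCG1 went from 15.8 and 18.0 CPM in siControl to 4.13 and 4.57 CPM in siNAT10, close to TJP3 in each library. With 2 groups of 2 libraries, such a distance mostly reflects the size of the group difference.

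The other genes of the junction were taken from 9 lists of 93 names, of which 90 were in the table and 68 passed the filter on low counts. Of these 68, 14 (20.6%) rose and 22 (32.4%) fell, beside 19.7% and 20.7% of all tested genes, and 32 were not called (edgeR, adjusted p under 0.05). Their median log2 fold change was -0.14. The 68 include 7 transcription regulators and 9 genes of the neighbouring adherens junction. The lists were chosen with earlier results of these data known, so these shares are a description only. The counts given below for each list stand beside the same 19.7% and 20.7%, and nothing is read from them about a list. The number that rose was 8 with library totals alone and 7 without siNAT10 replicate 2.

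Among the membrane proteins of these lists, the tricellular protein MARVELD2 rose and a pair of immunoglobulin-like adhesion genes fell. MARVELD2 (tricellulin), an occludin relative that seals corners where 3 cells meet, was at 0.420 and 0.216 CPM in siControl and at 1.62 and 1.56 CPM in siNAT10, differing on the log2 scale by 2.30 ± 0.40 (edgeR adjusted p = 1.28e-04) at low counts. It thus moved opposite to OCLN, its relative among the 9. It was the only called member of the 4 tested in its list, and the tricellular receptor LSR had 1.05 and 1.16 CPM and then 0.809 and 0.440 CPM without passing. Of 4 tested adhesion genes of the immunoglobulin type, 2 fell and none rose, beside 20.7% and 19.7% of all tested genes. CXADR, the coxsackievirus and adenovirus receptor, fell from 30.8 to 16.7 CPM (-0.88 ± 0.10, edgeR adjusted p = 8.32e-07), and CLMP from 83.4 to 56.3 CPM (-0.57 ± 0.074).

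Of 5 tested claudins outside the 9 genes, 1 rose and 1 fell. CLDN12, a claudin that lacks the usual ZO-binding tail, rose from 13.9 to 17.4 CPM (a log2 difference of 0.32 ± 0.10, edgeR adjusted p = 0.0198), a call lost without siNAT10 replicate 2, with library totals alone and with DESeq2, and it shares exon bases with GTPBP10, CDK14 and other rows. The one that fell was CLDN2, a pore-forming claudin with 25 and 30 counts in siControl and 4 and 5 in siNAT10 (named after its values were seen, and sharing exon bases with another row). CLDN23 was at 4.28 and 3.25 CPM as group means and was not called.

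Among 10 other tested scaffold genes, 2 rose and 3 fell. YBX3, the Y-box factor that binds the SH3 domain of ZO-1, rose from 134 to 154 CPM (0.21 ± 0.067), a call lost without siNAT10 replicate 2 and with library totals alone. MLLT4 (afadin, AFDN), which ties nectins to actin, fell from 92.5 to 55.0 CPM (-0.75 ± 0.070, edgeR adjusted p = 7.12e-08), and the inverted scaffold MAGI3 fell from 35.0 to 22.8 CPM (-0.62 ± 0.094).

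Of 12 tested polarity and angiomotin genes, 4 rose and 3 fell. PARD3B, a relative of the polarity scaffold PARD3, rose from 11.5 and 10.4 CPM to 35.0 and 32.2 CPM (a log2 difference of 1.62 ± 0.099, edgeR adjusted p = 2.48e-10), and PARD3 rose from 106 to 135 CPM (0.35 ± 0.071). AMOTL2, an angiomotin that binds YAP, rose from 87.0 to 133 CPM (0.61 ± 0.066). AMOTL1, a more abundant angiomotin, fell from 287 to 234 CPM (-0.30 ± 0.063) and is named outside the rule given below. The atypical protein kinase C gene PRKCZ fell from 42.8 to 28.5 CPM (-0.59 ± 0.087), with FAAP20 and other antisense rows overlapping it.

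Of 11 tested partners of cingulin and related junction regulators, 3 rose and 5 fell. ARHGEF2 (GEF-H1), an exchange factor that cingulin binds at the junction, fell from 186 to 96.1 CPM (a log2 difference of -0.96 ± 0.070, edgeR adjusted p = 2.55e-09), with both siNAT10 libraries (97.0 and 95.1 CPM) far below both siControl libraries (177 and 196 CPM). PLEKHA7, which binds paracingulin at the adherens junction, fell from 40.7 to 29.6 CPM (-0.46 ± 0.084; OR7E14P on the opposite strand shares 1.62% of its exon bases), and its relative PLEKHA5 fell from 129 to 83.4 CPM (-0.63 ± 0.066). ADAM10, a protease that PLEKHA7 complexes help place at junctions, rose from 61.1 to 85.0 CPM (0.48 ± 0.068). Thus CGNL1 was higher while its partner PLEKHA7 was lower in the same libraries.

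Of 6 tested claudin partners and proteases, 3 fell and none rose, beside 20.7% and 19.7% of all tested genes. EPCAM, which binds claudin-7 and protects it from degradation, was at 7.41 and 8.35 CPM in siControl and at 3.81 and 4.13 CPM in siNAT10, differing on the log2 scale by -0.99 ± 0.15 (edgeR adjusted p = 4.04e-05). The EpCAM-cleaving protease matriptase (ST14) fell from 11.9 to 7.09 CPM (-0.76 ± 0.14). WNK4, a kinase that acts on claudins, fell from 2.77 to 1.66 CPM, a call lost without siControl replicate 2, without siNAT10 replicate 1 and with DESeq2. COA3 on the opposite strand shares 16.0% of the WNK4 exon bases. It had 99 and 130 counts in siControl and 79 and 100 in siNAT10, beside 100 and 108 and then 40 and 64 for WNK4.

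**Figure D4:**
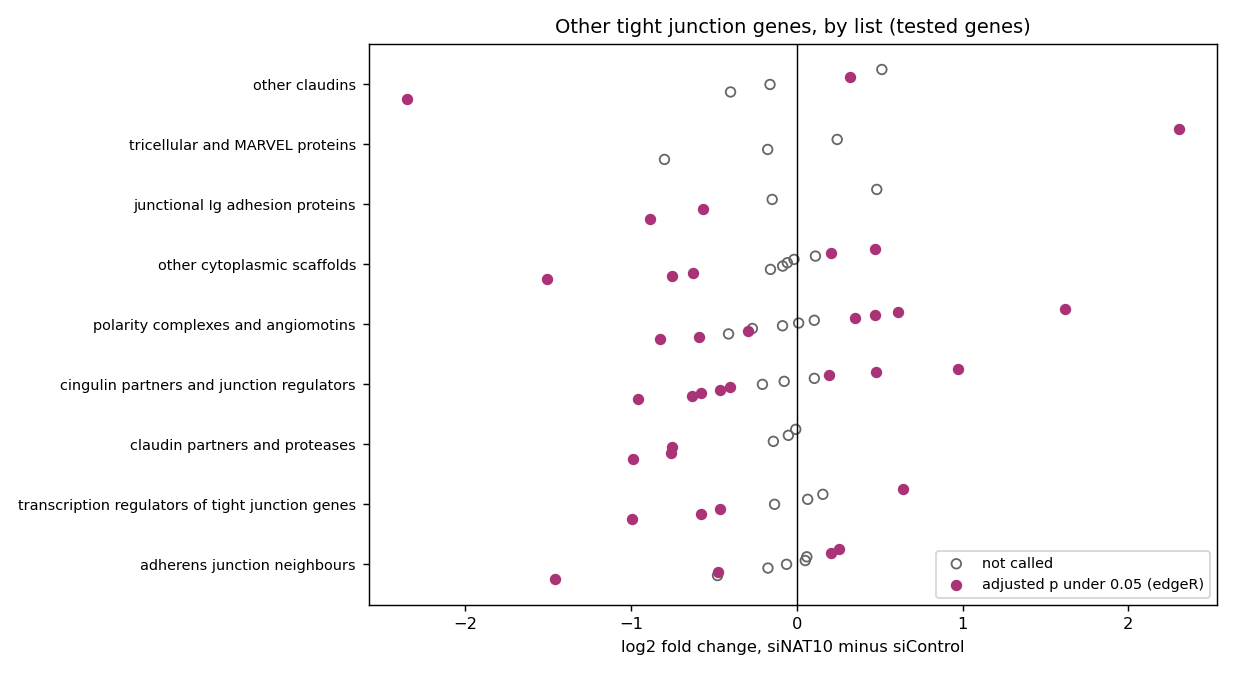
Log2 fold change (horizontal axis, siNAT10 minus siControl) of the 68 tested genes of 9 other junction lists (vertical axis), with filled points for edgeR adjusted p under 0.05 and open points for the rest. Calls lie on both sides of 0 in 6 lists. They lie on the right only for tricellular and MARVEL proteins (1 call). They lie on the left only for junctional Ig adhesion proteins (2 calls) and claudin partners (3 calls). Nothing is read from the side of so few calls.

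The factors that bind the letters shown above were measured too. Of 7 tested regulators of junction genes, 1 rose and 3 fell. ZEB1, an E-box repressor of epithelial genes, was by far the most abundant and fell from 197 to 143 CPM (a log2 difference of -0.47 ± 0.066, edgeR adjusted p = 1.35e-05), with ZEB1-AS1 overlapping 4.23% of its exon bases. SNAI2 fell from 10.3 to 6.97 CPM (-0.58 ± 0.15), a call lost without siNAT10 replicate 1. SNAI1 rose from 1.58 to 2.47 CPM (0.64 ± 0.24, edgeR adjusted p = 0.0411), but the call was lost in 8 of 12 alternatives, among them each one that left out a library. GRHL3 fell from 1.49 to 0.748 CPM, a call lost with DESeq2, without siControl replicate 2 and without either siNAT10 library, and GRHL2 was under 0.5 CPM in every library. GRHL1, the most abundant grainyhead-like gene, was at 12.5 and 11.8 CPM in siControl and 12.4 and 9.72 CPM in siNAT10, with overlapping groups, and was not called. The repressor gene ZEB2 was not called either, at 15.7 and 16.4 CPM as means of siControl and siNAT10, with overlapping groups. GRHL1, GRHL2 and ZEB2 are named outside the rule given below. Whether any of these factors bears on the 9 genes was not tested.

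Of 9 tested genes of the neighbouring adherens junction, 2 rose and 2 fell. NECTIN4 fell from 6.60 to 2.39 CPM (a log2 difference of -1.46 ± 0.19, edgeR adjusted p = 5.77e-06) and NECTIN3 from 7.54 to 5.39 CPM, the latter a call lost without siNAT10 replicate 2 and with DESeq2. The catenin genes CTNNB1 (from 72.2 to 86.1 CPM) and CTNND1 (from 107 to 124 CPM) rose slightly. Both calls were lost without siNAT10 replicate 2 and with library totals alone, and that of CTNND1 also without siNAT10 replicate 1.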

How the data were processed

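RNA of SAS cells was sequenced in 4 libraries, 2 siControl and 2 siNAT10, grouped by their titles. The submitters' processing notes name fastp 0.23.4, STAR 2.5.3a, featureCounts and the build GRCh38. The authors deposited whole-number counts for each gene row, not normalized. What was done about strand, annotation release and PCR copies was not given in the sources used here. Between 72.0% and 73.5% of counts from 1 to 50 were even, as counting both mates would give. A count of 3 corresponded to 0.0826 to 0.0974 CPM of the library total.

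The test was edgeR 4.0.16 under R 4.3.3 (filterByExpr, TMM, robust glmQLFit, glmQLFTest, group only, 2 residual degrees of freedom, two-sided, Benjamini-Hochberg adjustment over 20098 rows, threshold 0.05), after a check on simulated counts. Exon overlaps were computed from the positions in the table. The 9 genes, the lists and the named-gene rule were chosen with earlier results of these data known. All 9 genes were named, and from each list up to 4 called genes of at least 1 CPM with the smallest adjusted p and, with fewer than 2 such, the most abundant uncalled one. CLDN2, AMOTL1, ZEB2, GRHL1 and GRHL2 were named outside this rule. The scaffold list counts include 1 named gene that is not reported here. Libraries of a group differed beyond sampling noise (chi-square per degree of freedom 7.94 and 4.77). These values come from the counts as deposited, and counting both mates would by itself raise them. DESeq2 1.42.0, other scalings and filters, halved counts, a replicate block, rows without overlap and leaving out each library were the alternatives.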

Additional observations from a re-analysis of the deposited data

How the results depend on the processing

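With 12 alternatives, all 9 tight junction genes kept the direction of their log2 fold change in every fit that tested them. CGNL1 ranged from 2.47 to 2.64, CLDN7 from -2.44 to -2.19, TJP3 from -2.11 to -1.83, and only CGN and CLDN4 changed sides of the threshold. Leaving out each library in turn gave 2 to 3 genes called higher and 4 lower of the 9, 7 to 13 higher and 18 to 21 lower of the other junction genes, and 6128 to 7795 calls over the table. Without overlapping rows, where fewer rows were tested, calls numbered 3934 over 9865 rows, 2 of 6 tight junction genes were called lower (CGNL1, F11R and CLDN7 were not in that fit), and 8 of 39 other junction genes were higher and 13 lower. With library totals alone, 8 other junction genes were higher, and NAT10 changed sign (-0.024). DESeq2 called 5611 genes, 2840 higher and 2771 lower. The replicate numbers are not tied to shared cultures, and deviations of same-numbered libraries correlated at -0.0097 over 18102 rows. With the replicate block, 8254 genes were called, and 3 of the 9 genes were higher and 4 lower. Low counts limit MARVELD2, SNAI1, GRHL3 and WNK4.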
